A study of Mus musculus with 6 samples.

Results

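The miRNAs of B cell-primed CD8+ T cells were described from 296 mouse-named quantitative PCR assays, out of 306 mouse-named and 350 miRNA assays in all. An assay was taken when its raw threshold cycle (Ct, the PCR cycle at which product is detected, so that a lower value means more template) was below 35 in all 3 B cell-primed samples. These assays were 96.7% of the mouse-named ones. The series holds 6 samples of CD8+ T cells from pMel-1 mice, whose transgenic T cell receptor recognises a peptide of the melanocyte protein gp100. The 3 samples described here were primed in vitro for 3 days with splenic B cells loaded with the hgp100(25-33) peptide, 1 in each of rounds 1, 2 and 3; the other 3 were primed with LPS-matured dendritic cells grown from bone marrow, and are not compared here. All T cells carried the same receptor, no unprimed cells enter the description, and the labels do not say whether the rounds came from separate animals, so SDs and p-values cover the variation among these samples alone, which may be technical.

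MiRNAs are small RNAs cut from hairpin precursors. Either arm of the hairpin can give a mature strand, the guide arm being the one usually retained and the star arm the one usually lost. Bases 2 to 8 of the mature strand, the seed, pair with target mRNAs, so miRNAs that share a seed are grouped as a family. Activation of a CD8+ T cell is known to raise miR-155, miR-21 and the cluster that runs from miR-17 to miR-92a, and to lower miR-150, miR-26a and let-7.

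Of the 296 members, 234 were matched by name to a mature sequence of RefSeq on the mouse build GRCm38.p6, among them 21 of the 25 highest. The first set below gives the highest matched members, with the seed in capitals and sequences written 5′ to 3′. They share no seed with one another, so the top of the list was not a single family.
miR-691: aUUCCUGAagagaggcagaaaa
let-7g*: aCUGUACAggccacugccuugc
miR-326: cCUCUGGGcccuuccuccagu
miR-21: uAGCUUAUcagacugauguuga
miR-7a*: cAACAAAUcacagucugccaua
miR-92b: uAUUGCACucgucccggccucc
miR-155: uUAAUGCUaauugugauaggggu

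The genes of these miRNAs lie apart from one another. The mature strand of miR-21 lies at chr11:86584120-86584141 on the minus strand, inside the span of the protein-coding gene Vmp1. That of miR-155 lies at chr16:84714143-84714165 on the plus strand, inside its own host gene Mir155hg. That of miR-326 lies at chr7:99552328-99552348 on the plus strand, inside Arrb1, and that of let-7g* at chr9:106178902-106178923 on the plus strand, inside Wdr82. That of miR-92b, at chr3:89227126-89227147 on the minus strand, lies in no annotated span of a protein-coding or long noncoding gene. Only gene spans were used, so exons and introns were not told apart.

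The second set holds members of families with a shared seed, some of them close in level and some far apart, since the families and their near-identical strands are described further down. The first 3 share the seed AAAGUGC of the miR-17 family, the next 3 the seed AUUGCAC of the miR-92 family, the next pair the seed AGUGCAA, and the last 3 the seed GAGGUAG of let-7.
miR-20a: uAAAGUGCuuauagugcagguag
miR-17: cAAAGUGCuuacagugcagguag
miR-106a: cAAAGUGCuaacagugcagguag
miR-25: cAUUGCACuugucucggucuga
miR-92a: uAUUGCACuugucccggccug
miR-363: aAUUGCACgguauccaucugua
miR-130b: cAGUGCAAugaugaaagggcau
miR-130a: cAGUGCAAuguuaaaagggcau
let-7a: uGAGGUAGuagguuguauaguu
let-7e: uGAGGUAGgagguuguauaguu
let-7g: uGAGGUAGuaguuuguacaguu

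Levels are given as minus the authors' dCt, which is Ct less 1 number per sample (26.4, 27.1 and 27.6 cycles in rounds 1, 2 and 3). Higher thus means more template read by the assay, and 1 unit is 1 cycle, or a doubling on the log2 scale. Whether an assay reads only the miRNA it is named for was not tested. The level of the members ran from 12.01 to -7.33, a span of 19.34, with a median of -1.03. Subtracting 1 number per sample leaves the order by mean unchanged. Levels of different assays also carry the efficiencies of their primers, which are unknown. In total RNA from many cells, a miRNA held by fewer cells and one held at less RNA per cell cannot be told apart. By mean Ct, 5 members lay below 20 cycles, 55 from 20 to 25, 169 from 25 to 30, and 67 from 30 to 35.

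Control wells recur in each of 4 blocks of 94 rows of the table. RNY3, a Y RNA, had mean Ct values of 22.7, 24.5 and 24.5 in the first 3 blocks in rounds 1, 2 and 3, and came 3.84 ± 0.40 cycles later in the fourth (SD, n = 3). The small nucleolar RNA snoRD47 came 7.62 ± 1.33 cycles later there, and the worm miRNA assay cel-mir-67 came 1.33 ± 0.69 cycles later. The median member of the fourth block had a mean Ct of 29.0, against 27.5 to 27.9 in the first 3 blocks. The part of this in the levels of the fourth block's 76 members was not tested. Of the 25 highest members, 5 lie in that block.

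**Figure D1:**
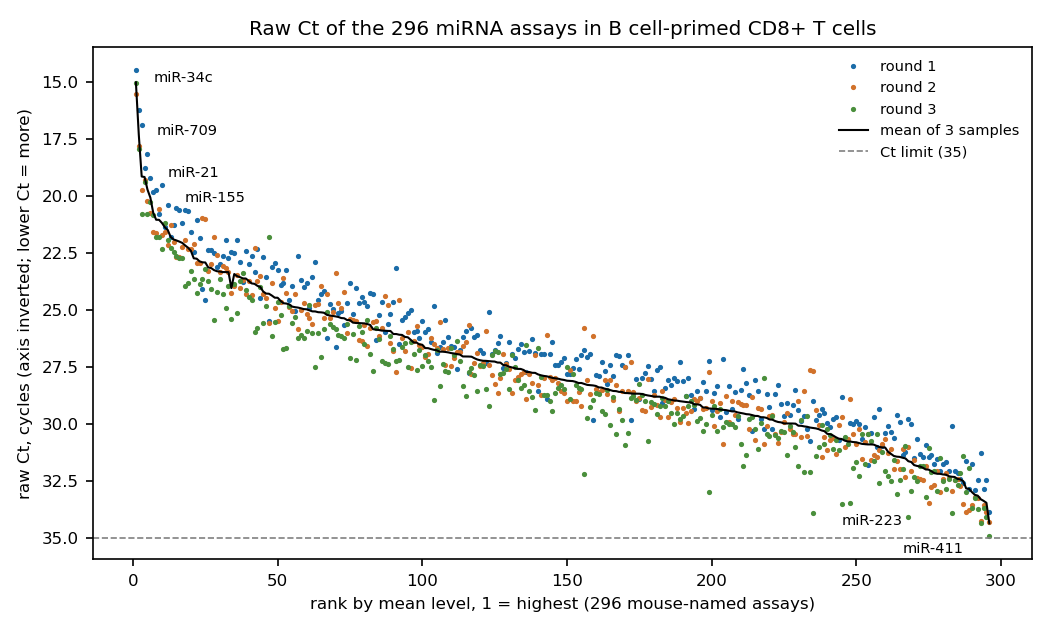
Raw Ct of each of the 296 members (vertical axis in cycles, inverted) against its rank by mean level, with 1 point per round, the mean as a line and the limit of 35 dashed. The curve is steep over the first ranks, from 15.0 for miR-34c to about 22 cycles, and then falls evenly to miR-411 at 34.4; the small notch at rank 34 is miR-23b, whose Ct and dCt differ.

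The assay for miR-34c, a member of the miR-34 family induced by p53, was the highest of the 296 in every round. Its Ct was 14.5, 15.54 and 15.04 in rounds 1, 2 and 3, and its level 12.01 ± 0.52 (SD, n = 3). The other miR-34 assays lay far lower. Its own star strand, miR-34c*, had Ct values of 28.55, 28.29 and 26.66, and miR-34b-3p, made from the neighbouring hairpin, had 26.57, 27.47 and 26.66. The paralog miR-34a had 27.59, 26.87 and 26.37, and miR-449a, with the same seed as miR-34a, had 30.99, 30.87 and 31.24. No other miR-34 or miR-449 member reached the 100 highest.

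The second assay was miR-709, with Ct values of 16.23, 17.82 and 17.93, second in every round. miR-34c exceeded it by 1.73, 2.28 and 2.89 in the 3 rounds, a mean difference of 2.30 ± 0.58 (SD, n = 3). miR-709 in turn exceeded miR-691 by 1.83 ± 1.12, in the same order in all 3 rounds.

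From rank 3 downwards most neighbours did not differ beyond their spread. Of the 25 steps between neighbours from rank 1 to rank 26, the difference was larger than its SD over rounds in 3: miR-34c over miR-709, miR-709 over miR-691, and miR-21 over miR-7a*. In the remaining 22 the order changed between rounds or the step was smaller than its SD. miR-691 stood at 16.89, 19.77 and 20.81 cycles and was 1.91 above let-7g* in round 1 but 1.40 below it in round 3. let-7g*, the star strand of let-7g, was steadier, at 18.80, 19.33 and 19.41 cycles and a level of 7.86 ± 0.34. miR-326 had Ct values of 18.18, 20.21 and 20.80.

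miR-21 and miR-155 were the highest members known for a rise on T cell activation. miR-21, which lowers Pdcd4, had Ct values of 19.21, 20.75 and 20.29 and a level of 6.95 ± 0.51, at rank 6. It stood above its neighbour miR-7a* by 0.63, 0.83 and 0.55. miR-155, required for full CD8+ effector responses, had Ct values of 20.79, 20.58 and 21.80 and a level of 5.98 ± 0.51, at rank 9. miR-92b, just above it on average, was 1.06 higher in round 1 and 1.04 lower in round 2, so these neighbours were not separated.

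The rest of the 25 highest fell into several kinds. miR-370, miR-154 and miR-668, at ranks 10, 11 and 23, come from the imprinted Dlk1-Dio3 locus. miR-130b, with Ct values of 20.39, 22.17 and 21.94, and miR-139-3p, with 21.82, 21.29 and 22.30, stood at ranks 12 and 13. miR-690, miR-805, miR-712 and miR-706 filled ranks 14 to 17 at levels of 5.12, 5.08, 5.03 and 4.97; miR-712 is known to be cut from the ribosomal RNA precursor. let-7a, miR-23a, miR-16, miR-20a, miR-15b, miR-142-3p and miR-19b, all familiar in lymphocytes, completed the 25 at levels from 4.86 down to 4.11.

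**Figure D2:**
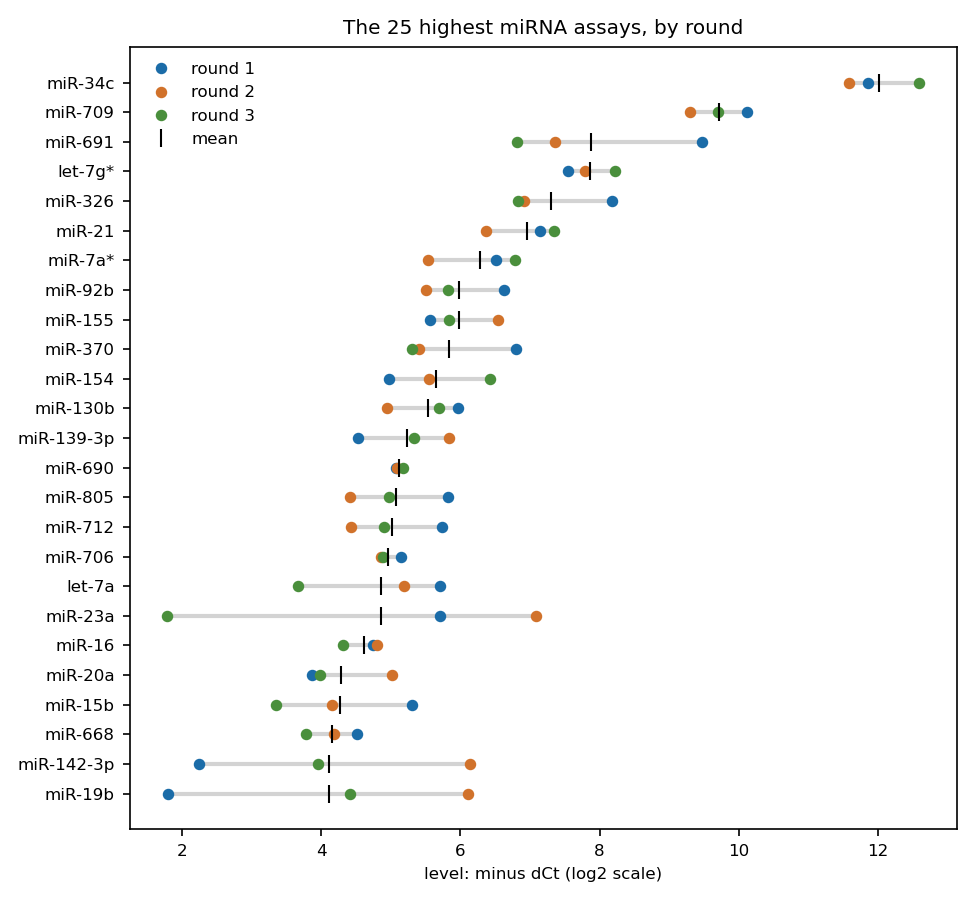
Levels (minus dCt, log2 scale) of the 25 highest members, with 1 point per round, a grey bar over their range and a tick at the mean. miR-34c and miR-709 stand clear of the rest in all 3 rounds, while the points of miR-23a (by dCt), miR-142-3p and miR-19b are spread over more than 3 units.

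The order was much the same from round to round over all 296 members, with Spearman correlations across assays of 0.93 for rounds 1 and 2, 0.91 for rounds 1 and 3, and 0.90 for rounds 2 and 3; the 3 samples share the same assays, and assays are not replicates. Of the 25 highest, 16 were among the 25 highest in every round, and 36 members reached that set in at least 1 round. When each block of rows was scaled to its own RNY3 and snoRD47 wells, an alternative chosen after seeing the data, 12 of the 25 stayed in the set, and 18 of the 25 highest then came from the fourth block. Under that scaling miR-709 and let-7g* stood at ranks 1 and 2 and miR-34c at 3.

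Most of the summed signal came from few assays. With the signal of an assay taken as 2 to the power of minus Ct, which assumes doubling in every cycle for every assay, miR-34c made up 49.0%, 54.4% and 69.6% of the summed signal in rounds 1, 2 and 3, or 57.6% ± 10.7 (SD, n = 3). miR-709 made up 11.8% ± 2.74. These shares, like those of the families below, use Ct with no scaling by block. Shares were not computed under the scaling to control wells, where miR-709 and let-7g* stood above miR-34c. The 10 highest members together made up 85.2% ± 4.86 and the 25 highest 92.3% ± 2.47. Without miR-34c, the 10 highest of the remaining members made up 66.8% ± 7.86 of what was left. miR-21 alone contributed 1.72% ± 0.22, and miR-155 0.97% ± 0.59, which was 0.63% without round 2.

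The 234 members with a sequence held 178 distinct seeds, and 31 seeds were shared by at least 2 members. Because miR-34c outweighed every family and its sequence was not matched, family shares are given of the summed signal without it. The let-7 family led with 3.60% ± 1.18 (SD, n = 3) over its 9 members. The miR-92 family, seed AUUGCAC, followed with 3.23% ± 1.00, led by miR-92b. The miR-15/miR-16 family, seed AGCAGCA, made up 1.82% ± 0.38, the miR-17 family, seed AAAGUGC, 1.70% ± 0.98, and the family of miR-130b, seed AGUGCAA, 1.61% ± 0.32. The difference between the first and the second family was smaller than either SD. miR-19a and miR-19b, seed GUGCAAA, made up 0.11%, 3.21% and 0.91% in rounds 1, 2 and 3, so that their mean of 1.41% ± 1.61 rests mostly on round 2.

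Strands that are nearly identical were read at very different levels. Among the members, 37 pairs of mature strands differed by at most 2 bases, with lengths within 1 base, and the median size of their difference in level was 2.02. miR-130b exceeded miR-130a, which differs from it by 2 bases, by 9.70, 9.13 and 10.35. miR-17 exceeded miR-106a, which differs by 1 base, by 5.40, 6.55 and 6.69, and miR-103 exceeded miR-107 by 4.54 ± 0.25 (SD, n = 3), likewise across 1 base. At the other end, miR-20a and miR-17 differed by 0.57 ± 0.08 and miR-27b and miR-27a by 0.34 ± 0.51. Whether an assay also reads its near-identical relative was not tested.

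The let-7 family, inhibitors of growth and of the Lin28 pathway, was high as a whole. All 9 members passed the Ct limit, as did 96.7% of all mouse-named assays. All 9 also lay above the median of the 296, with a median 4.48 above it. let-7a led at 4.86 ± 1.06, with Ct values of 20.64, 21.93 and 23.96. let-7e followed at 3.89 ± 0.07 and let-7i at 3.87 ± 0.30, and miR-98 was the lowest at 0.28 ± 1.46. Each of the 9 except let-7e was lowest in round 3, while let-7e was level over all 3. The family's median level was 3.95, 3.65 and 2.47 in rounds 1, 2 and 3.

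The cluster of miR-17 to miR-92a, like its paralogs, promotes lymphocyte growth and survival. This group had 13 of 13 members below the limit, against 96.7% of all mouse-named assays. Of the 13, 11 lay above the median of all members. By mean level the cluster at chr14:115043684-115044496, plus strand, lay within 2.55 units from end to end, but it was wider within each round. Levels ran from 3.87 (miR-20a) to -0.28 (miR-19a) in round 1 and from 6.11 (miR-19b) to 1.54 (miR-92a) in round 2. In round 3 they ran from 5.80 (miR-92a) to 0.58 (miR-18a). By mean, miR-20a was the highest member of the cluster, with Ct values of 22.48, 22.10 and 23.65, and miR-17 stood at 23.13, 22.59 and 24.21. miR-18a had 24.33, 23.96 and 27.05, and miR-19a 26.63, 23.38 and 25.86. miR-92a was the most uneven, at 25.48, 25.58 and 21.83, so that it was below all of the cluster except miR-19a in round 1 and the highest of it in round 3. The paralogs on the X chromosome were lower: miR-106a stood at -2.49 ± 0.68, miR-20b at -2.00 ± 0.72 and miR-363 at -0.73 ± 0.97. The mature strands of miR-92a and miR-19b are encoded both on chromosome 14 and on X, so their level cannot be assigned to either locus.

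miRNAs known to rise on T cell activation had a median 2.13 above that of all members, with 11 of 18 above it, and those known to fall had a median 2.78 above it, with 16 of 22. Over all members as many lie above the median as below it, so the first group, at 11 of 18, was close to that share. The second group, at 16 of 22, lay above it more often. Within the first, miR-21 was the highest and miR-96 the lowest, at -3.74 ± 2.05. miR-31 had Ct values of 26.63, 25.55 and 28.33, and miR-210, the miRNA of hypoxia, had 30.23, 30.90 and 28.01. miR-182, induced by IL-2 in helper T cells, and its neighbour miR-183 stood at -1.72 ± 1.23 and -1.26 ± 0.74. miR-221 and miR-222, made from 1 transcript, stood at -1.52 ± 0.31 and -1.99 ± 0.19. miR-146a, which restrains NF-kappaB signalling, had 24.33, 25.55 and 27.68 cycles. Within the second group let-7a was the highest and miR-99a the lowest, at -5.19 ± 0.15. miR-150, abundant in resting lymphocytes, stood at 3.47 ± 0.39 with Ct values of 22.91, 24.04 and 23.76, at rank 37. miR-26a stood at 1.91 ± 0.23.

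miR-29, a repressor of T-bet and Eomes, had all 3 of its members above the median of all members, from miR-29a at 3.78 ± 1.56 to miR-29b at 1.12 ± 1.38. The miR-30 family had 4 of 5 members below the limit, against 96.7% of all mouse-named assays. These ran from miR-30d at 2.43 ± 0.04 to miR-30e at -0.01 ± 1.43. The miR-15/miR-16 family ran from miR-16, at 4.62 ± 0.27 and 21.60, 22.32 and 23.32 cycles, to miR-322 at -2.54 ± 1.03; miR-15b stood at 4.28 ± 0.98. In the miR-181 family, which tunes T cell receptor sensitivity, miR-181b was high at 1.79 ± 0.20. miR-181a, encoded beside it at both of its loci, was lower at -1.81 ± 0.81, with Ct values of 29.09, 28.56 and 28.89. miR-181c was the lowest, at -2.58 ± 1.20. The 10 assayed members of the Sfmbt2 intron cluster ran from miR-297a at 2.15 ± 0.77 to miR-467b at -1.02 ± 0.39.

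All 5 assayed miRNAs of the clusters with miR-23, miR-27 and miR-24 lay above the median of all members, by a median of 4.62, which is the value of miR-23b. By Ct the 5 also lay above it, by a median of 3.95. miR-24 stood at 3.69 ± 0.37 and miR-27a at 2.32 ± 1.32. miR-23a and miR-23b were the only members whose deposited dCt and Ct disagreed by more than 0.02 cycles. By dCt, the level of miR-23a was 5.70, 7.08 and 1.79 in rounds 1, 2 and 3, a mean of 4.86 ± 2.75, whereas its Ct values of 20.65, 22.34 and 23.84 give 4.76 ± 0.96. By dCt miR-23b stood at 3.65 ± 1.32 and rank 34, and by Ct at 2.99 ± 0.83 and rank 44. The rank of miR-23a was 19 by both.

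The imprinted Dlk1-Dio3 locus on chromosome 12, known for miRNAs of brain and embryo, ranged from rank 10 to rank 296. The list for this locus does not hold every assay from it, such as miR-770-5p. Of the 28 assayed miRNAs on the list 27 were members, as were 96.7% of all mouse-named assays. Of the 27, 8 lay above the median of all members and 3 were among the 25 highest. miR-370 stood at 5.84 ± 0.83, with Ct values of 19.55, 21.71 and 22.32. miR-411 was the lowest of all 296, at -7.33 ± 0.17, with 33.87, 34.32 and 34.91 cycles. Within the stretch at chr12:109709065-109743452, plus strand, 18 members ran from miR-154 at 5.66 to miR-411, a span of 12.99. The 44 groups of neighbouring members, each within 10 kb of the next on 1 strand and this one included, had a median span of 2.54 by mean level. Some of these groups hold only the 5p and 3p arms of 1 hairpin, such as miR-139 and miR-770. The pair of miR-181a and miR-181b enters at both of its loci with the same span. The cluster holding miR-183, miR-96 and miR-182 spanned 2.49.

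**Figure D3:**
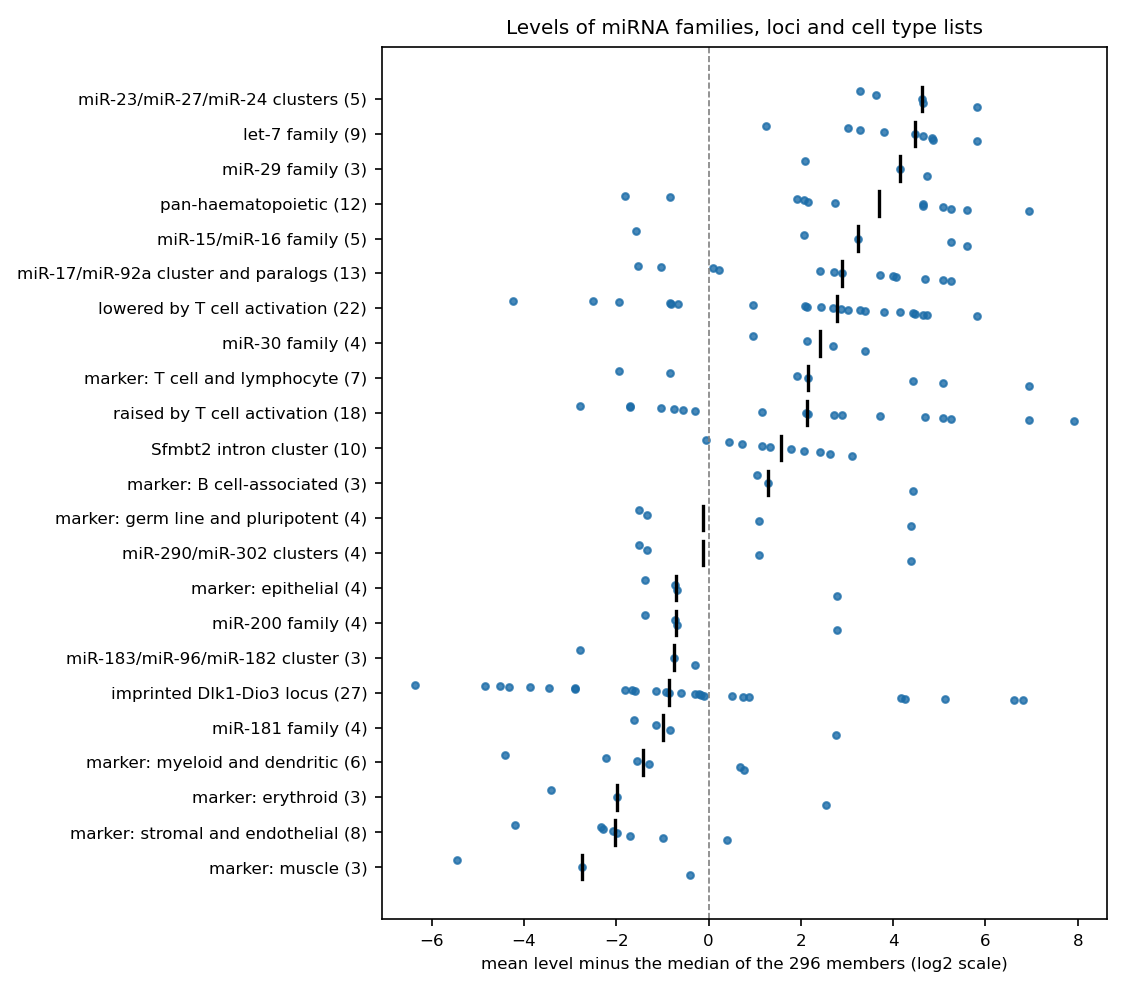
Mean level of each member of the fixed groups, as its difference from the median of the 296 members in the same sample (log2 scale), with a black bar at the group's median and the number of members in brackets. The let-7, miR-29 and miR-23/miR-27/miR-24 groups lie wholly above the dashed line at 0, and the muscle, stromal, erythroid and myeloid markers lie mostly below it.

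All 7 lymphocyte markers were members, as were 96.7% of all mouse-named assays, and 5 of the 7 lay above the median of all members. miR-142-3p, largely specific to blood cells, had Ct values of 24.10, 20.99 and 23.67, and miR-142-5p 26.51, 24.57 and 27.20; miR-342-3p was the lowest marker, at -2.90 ± 0.31. The 12 pan-haematopoietic miRNAs, led by miR-155, had a median 3.69 above that of all members, and miR-107 was their lowest at -2.77 ± 0.22. The B cell-associated markers miR-150, miR-148a and miR-34a, which T cells also make, ranged from 3.47 to 0.09. Since B cells primed these cultures, their remaining RNA and that of the T cells cannot be told apart by these assays.

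Markers of other cells were mostly low, but most of those assayed passed the Ct limit, as did 96.7% of all mouse-named assays. Passing the limit does not by itself show that the T cells made the miRNA. The 6 assayed myeloid and dendritic markers had a median 1.41 below that of all members. miR-223, the defining myeloid miRNA, was near the bottom, at rank 285 with Ct values of 32.14, 32.44 and 32.67, and miR-22 was the highest of the 6 at -0.20 ± 1.22. The 8 stromal and endothelial markers had a median 2.03 below that of all members, with miR-126-5p at -0.56 ± 0.23 and miR-10b at -5.15 ± 0.17. Of the erythroid markers miR-486 was high, at 1.59 ± 0.44, whereas miR-144 stood at -4.37 ± 0.46. Of the epithelial miR-200 family miR-200c was high, at 1.81 ± 1.48, whereas miR-141 stood at -2.34 ± 0.86. The 3 muscle markers ran from miR-206 at -1.37 ± 0.28 to miR-208b at -6.43 ± 0.32. Of the pluripotency clusters miR-302d stood at 3.41 ± 0.83, rank 38, while miR-302a stood at -2.46 ± 0.85 and miR-302b was not below the limit in any round. miR-9 was the only neural marker assayed, and it was not a member.

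Only 10 mouse-named assays fell outside the limit. In 3 of them Ct was at least 35 in every round: miR-302b at 39.76, 39.76 and 36.58, miR-671-5p at 38.40, 38.25 and 35.23, and miR-125b-3p at 35.54, 38.63 and 35.77. These values do not show that the miRNAs were absent. miR-30a was the most uneven, with 42.30, 44.61 and 26.55 cycles. miR-208a had no value in round 1 and 28.09 and 29.14 in the other rounds. By mean Ct, the assays just outside the limit were miR-208a, miR-29a* with 32.33, 33.35 and 37.49, miR-9 with 33.25, 34.58 and 35.48, miR-299 with 33.01, 37.46 and 35.07, and miR-184 with 33.46, 36.78 and 35.41; miR-688 made up the 10. The members just inside were miR-411, miR-208b, miR-1197, miR-721 and miR-450a-5p, with mean Ct from 34.4 down to 33.2. The next lowest levels were those of miR-9*, miR-197, miR-666-5p, miR-146b* and miR-434-3p, from -6.08 to -5.48.

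The SD over rounds had a median of 0.63 on the log2 scale, with quartiles of 0.39 and 0.98. It was below 0.5 in 110 members and above 1 in 68, which is 23.0% of them. It did not move with level: its Spearman correlation with mean Ct across the 296 assays was -0.02, and its median was 0.66 for mean Ct from 20 to 25 and 0.59 from 30 to 35. The steadiest members were miR-450a-5p, miR-700, miR-100, miR-30d, miR-148b, miR-690, let-7e, miR-500, miR-191 and miR-377, with SDs from 0.02 to 0.09. miR-191, often used as a reference for other miRNAs, had Ct values of 22.75, 23.36 and 23.94 and an SD of 0.08.

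The least steady members were miR-689, miR-299*, miR-23a, miR-92a, miR-712*, miR-31*, miR-301a, miR-19b, miR-96 and miR-19a, with SDs from 3.03 down to 2.01. The SD of miR-23a rests on its deposited dCt; from its Ct it was 0.96. By level, each of them except miR-92a was highest in round 2, miR-23a by its dCt. The round with the lowest level differed among them. miR-689 had 26.75, 25.80 and 32.20 cycles, and miR-299* 28.98, 27.68 and 33.89, both low in round 3. miR-712*, at 27.26, 27.73 and 32.99, was low in round 3 as well, and so was miR-96, at 29.95, 28.90 and 33.49. miR-92a was high in round 3. miR-19b, with 24.55, 21.01 and 23.22, miR-301a, with 29.83, 26.16 and 28.96, and miR-31*, with 30.74, 27.65 and 32.10, were high in round 2. Of the 68 members with an SD above 1, the highest value relative to the sample's median fell in round 1 in 22, round 2 in 31 and round 3 in 15, and the lowest fell in round 3 in 34.

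**Figure D4:**
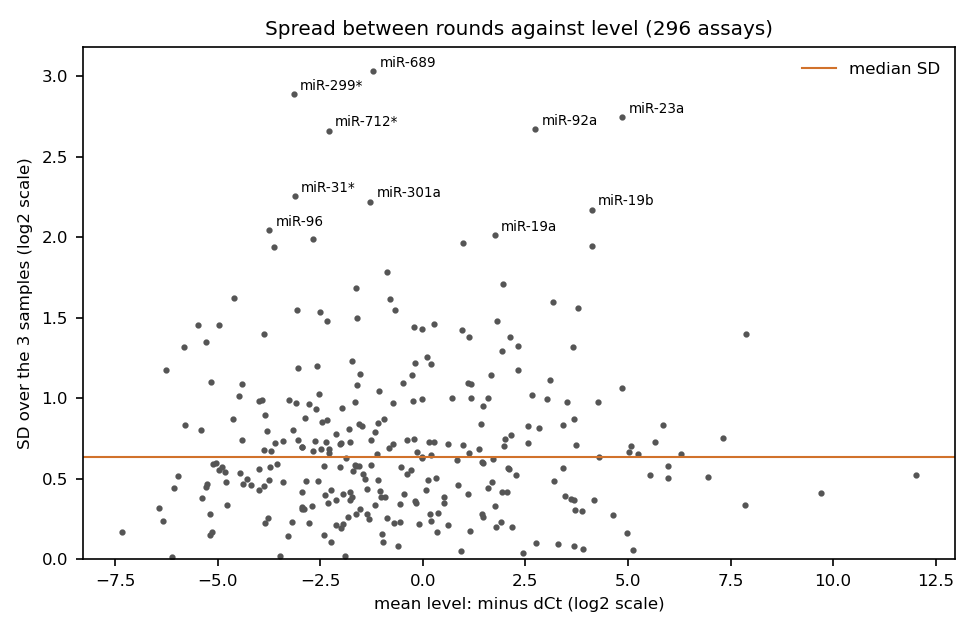
SD over the 3 samples against mean level (both log2 scale) for the 296 members, with the 10 largest SDs named and the median SD of 0.63 as a line. Large SDs occur at all but the highest levels, among them miR-92a in the upper part of the range; that of miR-23a, 2.75 by dCt, was 0.96 by Ct.

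Members poor in G and C tended to be high in round 2. Among the 234 members with a sequence, the deviation of round 2 from the member's mean had a Spearman correlation of -0.31 with the share of G and C, against -0.01 for round 1 and 0.24 for round 3. The deviations of a member cancel over the rounds, so these correlations are not independent of one another. Of 37 members with under 40% G and C, 27 were above their own mean in round 2, by a median of 0.32 over the 37, and miR-142-3p, miR-19a, miR-19b, miR-29c and miR-301a were among them. Of 119 members with 40% to 50% G and C, 58 were above their own mean in round 2, and of 78 with over 50%, 29 were. Within blocks of rows the correlation for round 2 was -0.18, -0.02, -0.33 and -0.28. Over the 180 members of mean Ct below 30 it was -0.34. These points share samples, wells and base composition within families. cel-mir-67 also differed by round, at 22.8 cycles in round 1 and 19.2 in rounds 2 and 3 in the first 3 blocks, and its part in this was not tested. Across assays, mean level itself had a Spearman correlation of -0.11 with G and C share and 0.06 with length.

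Hairpin arms could be compared within each sample in 65 pairs by name, since both were members: 46 named as guide and star and 19 named 5p and 3p. Some strands are encoded at 2 loci, so a pair need not come from a single hairpin. The strand of miR-7a is encoded at 2 loci and that of miR-7a* at 1 of them. Most differed. A limma fit across all 65 pairs called 56, or 86.2%, at an adjusted p under 0.05 (Benjamini-Hochberg, n = 3). Hairpins with an arm beyond the Ct limit, such as miR-125b-3p and miR-671-5p, were left out by the rule that chose the members. A call shows that a difference between assays repeated over rounds. It does not show which arm was more abundant, since the primer efficiencies are unknown. In 32 of the 46 guide and star pairs, or 69.6%, the guide-named arm was called higher, and in 9, or 19.6%, the star-named arm was. The median difference of guide minus star was 2.71. The fit gave every pair the same standard error, 0.63, so that it leans on the spread of all pairs; with each pair's own spread 30 pairs passed. The difference also holds the efficiencies of both primers, and the pairs are split between blocks of rows: of 17 pairs with only the star in the fourth block, the guide was higher in 16, with a median of 3.57 over all 17, and of 26 pairs that this block did not split, in 18, with a median of 1.88 over all 26.

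Among the guide arms, miR-34c exceeded miR-34c* by 14.05, 12.75 and 11.62, a mean of 12.81 ± 0.63 (SE, limma adjusted p = 1.85e-40). That SE and p rest on the spread of all 65 pairs, not on these 3 samples alone. The pair's own SD was 1.22 (n = 3). miR-21 exceeded miR-21* by 11.52, 9.32 and 10.87. let-7i exceeded let-7i* by 8.98, 8.08 and 7.89, miR-191 exceeded miR-191* by 6.59, 7.78 and 8.64, and miR-712 exceeded miR-712* by 6.65, 5.04 and 10.26. The star arms of these 5 all lie in the fourth block of rows, as does the guide arm of miR-191.

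The opposite order, with the arm named as the star or the 3p arm reading higher, held for several well-known miRNAs. Pairs named 5p and 3p carry no guide label. Mature strands of such pairs are shown, both arms for miR-139 and miR-142 and the lower arm for miR-7a. The higher arm, miR-7a*, is in the first set of sequences.
miR-7a: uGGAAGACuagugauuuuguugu
miR-139-5p: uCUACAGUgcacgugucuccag
miR-139-3p: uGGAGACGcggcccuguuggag
miR-142-5p: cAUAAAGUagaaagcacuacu
miR-142-3p: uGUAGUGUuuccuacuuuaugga
miR-139-3p exceeded miR-139-5p by 6.78, 8.32 and 7.86, a mean of -7.65 ± 0.63 for 5p minus 3p (SE, limma adjusted p = 4.19e-22). Here too the SE and p rest on the spread of all pairs, and the pair's own SD was 0.79 (n = 3). Both arms of miR-139 lie in the fourth block. miR-330* exceeded miR-330 by 6.83, 7.03 and 7.72, with a mean of -7.19 for guide minus star; miR-330 lies in the fourth block, where controls came late, and miR-330* in the first. For miR-7a minus miR-7a* the differences were -3.05, -3.22 and -6.69, for miR-615-5p minus miR-615-3p they were -4.86, -3.74 and -4.33, and for let-7g minus let-7g* they were -3.15, -3.86 and -5.50. let-7g* lies in the fourth block, where controls came late, and let-7g in the first. miR-142-3p, the arm usually reported in blood cells, exceeded miR-142-5p by 2.41, 3.58 and 3.53. Without round 1 the pairs of miR-712 and miR-7a no longer passed, at mean differences of 7.65 and -4.955.

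**Figure D5:**
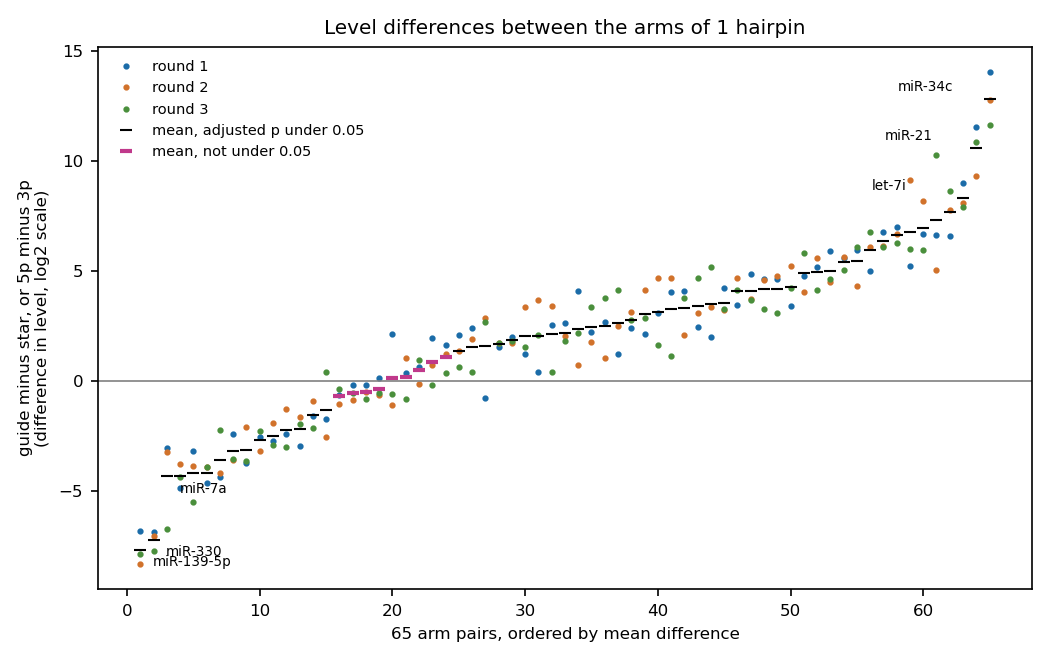
Difference in level (log2 scale) between the arms of each of 65 pairs, as guide minus star or 5p minus 3p, ordered by mean, with 1 point per round and a dash for the mean, black where the limma adjusted p is under 0.05. Points above 0 are pairs with the guide or 5p arm higher; miR-34c is at the right end at 12.81 and miR-139-5p at the left end at -7.65.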

How the data were processed

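Per the labels, DNase-treated total RNA was poly(A)-tailed and reverse transcribed from tagged oligo-dT primers, and miRNAs were read by SYBR Green PCR with specific forward primers. Per the file headers, the authors deposited raw Ct values and, on a reversed log2 scale, dCt values, from which a geometric mean Ct per sample had been subtracted. How Ct was called is not given in the sources used here. Levels are minus the deposited dCt, and SD is over 3 samples. Shares assume doubling per cycle. Arm differences were tested with limma 3.58.1 in R 4.3.3 (intercept only, lmFit and eBayes, two-sided, Benjamini-Hochberg over 65 pairs, threshold 0.05). The fit was first run on simulated pairs with unequal spreads. In the data it gave every pair the same standard error, so the simulated run does not vouch for these calls. Older miRNA names were matched to RefSeq arms by hand, for 234 members. Named are the 25 highest and 10 lowest members, the 10 largest and 10 smallest SDs, assays near or beyond the limit, the ends of each fixed list, the 5 largest arm differences each way and preset T cell miRNAs; miR-34 relatives, miR-25, miR-27b, miR-29c, miR-103, miR-106a, miR-130a, miR-363, miR-688 and miR-770-5p were added after their values were seen. Members and lists were chosen with earlier results of these data known. Ct limits of 30, 32 and 38, amplification of 1.9 and 1.8, other scalings and leaving out each round were tried. The 44 human-named assays were used only in 1 alternative. Depth has no counterpart in Ct; 194 members lay below 30 cycles in every round.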

Additional observations from a re-analysis of the deposited data

How the results depend on the processing

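The number of members was 251 and 300 at Ct limits of 32 and 38, 194 at a limit of 30, 296 to 298 when a round was left out, and 220 in the first 3 blocks of rows. Of the 25 highest members, 23 to 24 stayed without a round, 25 with raw Ct or the median over rounds, and 12 when each block was scaled to its RNY3 and snoRD47 wells. The share of the 10 highest members, 85.2%, was 80.2% and 73.7% at amplifications of 1.9 and 1.8 per cycle, 66.8% without miR-34c, 83.8% with human-named assays, and 83.0% to 87.8% without a round. That share was not computed with each block scaled to its control wells. The median SD of 0.63 was 0.87 with no normalization, 0.85 relative to the RNY3 and snoRD47 wells, and 0.45 to 0.59 without a round. The arm pairs called, 56, were 42 at a limit of 32, 38 to 54 without a round, 30 with each pair's own spread, 33 of the 41 pairs not split by the fourth block, and 20 of the 23 within 1 block, where fewer pairs were tested. The cause of the other changes was not tested. The block scalings, the subsets by block, the share without miR-34c and the pairs' own spread were chosen after seeing the data. The median of the Dlk1-Dio3 locus relative to all members moved from -0.86 to -0.57 without round 2. No paired analysis was possible because no groups are compared here; differences between arms and between neighbours in rank were taken within each sample.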
